A study of Mus musculus with 24 samples.

Results

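The segment described here is a 19.9 Mb stretch near the far end of mouse chromosome 8, from 104.1 to 124.0 Mb of GRCm38, in cells derived from EO771, a mammary carcinoma line of the mouse. Its members are the genes that lie wholly between the start of Cdh5 and the end of Urb2, except 3 that the selection rule leaves out, which gave 550 genes of 55471 in the count table and of 2535 on chromosome 8. The borders were chosen by the expression values themselves, because genes between them were higher in cells carrying Ccr7. The height of the segment in those cells is therefore what chose the members and is given only as a description. What follows asks which members followed the common shift, which exceeded it and which did not move, with the remaining genes of chromosome 8 as the contrast.

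EO771, which arose as a spontaneous tumour in C57BL/6 mice, was studied in the form of 4 derivatives. Retroviral transduction with the vector control gave X2, whose cells the study also shows with tdTomato. CCR7 cells were transduced with mouse Ccr7 cDNA and a tdTomato reporter in the PLNCX2 vector. They were enriched for tdTomato and CCR7 by fluorescence-activated cell sorting. The sequenced libraries of this group are the PDPN-negative fraction by their column names in the labels. The study's results describe such a sort of the CCR7 cells, and its supplement heads the group as PDPN-negative. CCR7-PDPN cells are the fraction of the Ccr7-transduced cells sorted for high podoplanin (PDPN), and X2-PDPN cells were sorted for high PDPN from the vector control. CCR7-PDPN against CCR7 therefore compares a positive with a negative sort. PDPN had come up spontaneously in both. The labels call the derivatives subclones while the protocol says that no clonal selection was done. X2 and CCR7-PDPN were sequenced in both batches, CCR7 in batch 1 alone and X2-PDPN in batch 2 alone, each time as 4 libraries. These 4 were technical replicates, so an adjusted p measures only the spread between such replicates and not between independently made populations.

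A transcript level depends on how many copies of its gene a cell holds, on how often these are transcribed and on how long the RNA lasts, and RNA sequencing reads only the outcome of all 3. DNA was not measured in these samples. Genes that serve every cell, such as those for ribosomes, tRNA charging, the proteasome and the respiratory chain, usually have promoters rich in CpG and are transcribed steadily, while genes of specialised cells are held off or on by local control. In bulk RNA, fewer cells with a transcript and less of it per cell cannot be told apart. The segment holds genes of both kinds, including a cluster of carboxylesterases and a family of CMTM genes next to the chemokine-like factor Cklf at its start, tRNA synthetases in its middle, and a gene-dense stretch at its far end.

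Promoter windows are shown for 4 members that moved differently. They cover 250 bases before to 50 bases after the annotated start, are taken from RefSeq on GRCm38.p6, and are shown 5′ to 3′ on the strand of the gene. Capitals mark 1 of 3 motifs on either strand, the TATA box (TATAAA), the CCAAT box and the GC box (GGGCGG). Nudt7, a nudix hydrolase of peroxisomes (chr8:114133368-114133667, plus strand), had no read in cells carrying Ccr7. Ldhd, the mitochondrial D-lactate dehydrogenase (chr8:111630287-111630586, minus strand), had one of the largest differences. Aars, alanyl-tRNA synthetase (chr8:111033592-111033891, plus strand), moved with the segment, and Ctcf, the insulator-binding zinc finger protein (chr8:105636288-105636587, plus strand), moved by less.
Nudt7: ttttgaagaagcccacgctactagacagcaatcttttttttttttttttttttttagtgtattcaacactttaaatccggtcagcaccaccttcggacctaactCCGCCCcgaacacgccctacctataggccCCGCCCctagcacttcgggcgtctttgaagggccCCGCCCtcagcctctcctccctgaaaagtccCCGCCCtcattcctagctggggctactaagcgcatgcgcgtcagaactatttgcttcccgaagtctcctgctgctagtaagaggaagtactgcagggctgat
Ldhd: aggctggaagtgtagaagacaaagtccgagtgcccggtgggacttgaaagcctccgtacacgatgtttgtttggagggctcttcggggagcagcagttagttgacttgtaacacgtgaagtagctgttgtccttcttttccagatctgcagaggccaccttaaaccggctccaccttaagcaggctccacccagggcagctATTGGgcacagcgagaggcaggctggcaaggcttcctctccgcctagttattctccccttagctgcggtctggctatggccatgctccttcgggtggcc
Aars: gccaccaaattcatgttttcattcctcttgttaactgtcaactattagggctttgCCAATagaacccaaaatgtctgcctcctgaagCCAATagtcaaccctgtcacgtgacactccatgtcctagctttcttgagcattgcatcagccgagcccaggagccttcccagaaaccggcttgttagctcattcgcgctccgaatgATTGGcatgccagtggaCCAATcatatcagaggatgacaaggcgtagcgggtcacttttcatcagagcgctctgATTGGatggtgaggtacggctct
Ctcf: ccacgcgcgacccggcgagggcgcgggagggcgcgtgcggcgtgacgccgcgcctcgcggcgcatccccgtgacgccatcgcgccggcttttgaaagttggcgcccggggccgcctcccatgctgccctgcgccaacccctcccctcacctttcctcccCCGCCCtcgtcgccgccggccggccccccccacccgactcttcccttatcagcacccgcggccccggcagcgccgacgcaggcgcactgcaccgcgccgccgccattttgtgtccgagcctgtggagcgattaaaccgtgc
The Nudt7 window held 4 GC boxes and 15 CpG, that of Ctcf 1 GC box and 47 CpG, that of Ldhd 1 CCAAT box and 11 CpG, and that of Aars 5 CCAAT boxes and 10 CpG. RefSeq gives 2 windows for Nudt7, of which the first is shown. A window was found for 229 of the 550 members. Among the 32851 windows of the whole RefSeq table, 35.7% held a GC box, 37.4% a CCAAT box and 13.6% a TATA box. For the 153 members tested in both batches with a window, the shares were 69.3%, 34.6% and 7.84%. These members are transcribed genes while the table covers all genes, so the shares do not have the same base. Within the segment a GC box was in 71.1% of the 97 windows of genes that followed the shift in every comparison with X2 and in 7 of the 13 windows of genes that exceeded it, or 53.8%, and the counts are small.

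Of the 550 members, 271 are protein-coding, 52 are annotated as rRNA, 45 as lincRNA, 37 as antisense RNA, 32 as processed pseudogenes and 30 as miRNA. In batch 1, 173 members had no read, 149 had reads but too few for the test, and 228 were tested, 196 of them protein-coding. The batch 2 table lists 228 of the members, of which 220 were tested. Tested in both batches were 219. A gene passes the filter through whichever group is high, so counts over the tested members are not counts over all members.

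As a check of the labels, Ccr7 averaged 2800 to 3178 CPM (counts scaled to the same total, 1e6, in each library) in the 3 groups labelled as carrying it and 0.341 to 0.661 CPM in X2 and X2-PDPN. Pdpn averaged 24.6 to 25.6 CPM in the PDPN-high sorts, 0.413 CPM in CCR7 and 0.0618 to 0.161 CPM in X2. Library totals lay between 22275468 and 35721027 counts. Of 5 epithelial markers only Krt8 averaged at least 1 CPM, at 223 to 298 CPM, while Krt18, Epcam, Krt14 and Krt5 stayed under that level in batch 1. Of the immune markers only Cd14 did so, at 1.29 to 2.07 CPM, and Cd3e had no read in batch 1. None of the 4 endothelial markers reached 1 CPM in any group. The fibroblast marker Pdgfra was at 150 to 180 CPM, Col1a1 at 1.44 to 5.39 CPM with its highest mean in X2-PDPN, and Dcn and Lum were at or near 0. The part of these markers in the results was not tested.

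The batches cannot be taken as independent of each other. Over 8054 genes above a log2 CPM of 4, the deviations of same-numbered libraries from their group mean correlated between the batches at 0.13 to 0.52 (8 pairs of X2 and CCR7-PDPN), and those of differently numbered libraries at -0.26 to 0.15 (24 pairs). Seen from batch 1, each library correlated best with its own number. Seen from batch 2, X2 replicate 3 and CCR7-PDPN replicate 1 correlated slightly better with replicate 2 (0.147 against 0.125, and 0.15 against 0.144). A same-numbered pair still differed by more than sampling noise (chi-square per degree of freedom 2.84 to 5.24). Values of the same comparison in batch 2 are therefore given as a second sequencing of related material and not as a second experiment.

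In each library with Ccr7 the segment stood apart from the rest of its chromosome, and in X2-PDPN it lay level with it. Relative to the mean of X2 in the same batch, the median log2 CPM of its tested genes was 0.94 ± 0.015 in CCR7 (SD, n = 4 libraries). CCR7-PDPN stood at 1.03 ± 0.022 in batch 1 and at 1.03 ± 0.017 in batch 2. In X2-PDPN it was -0.20 ± 0.019, beside -0.19 for the genes before the segment. The 12 libraries with Ccr7 lay between 0.92 and 1.05 and the 4 X2-PDPN libraries between -0.22 and -0.18, so the 2 kinds did not overlap. The members took 1.48% of all counts in X2 of either batch and 1.27% in X2-PDPN, against 2.79% in CCR7 and 2.94% in CCR7-PDPN of both batches. Over the same libraries, genes of chromosome 8 before the segment took 3.00% in X2, 2.59% in X2-PDPN and 2.44% to 2.46% with Ccr7. Their share was thus lower than in X2 both with Ccr7 and in X2-PDPN.

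**Figure D1:**
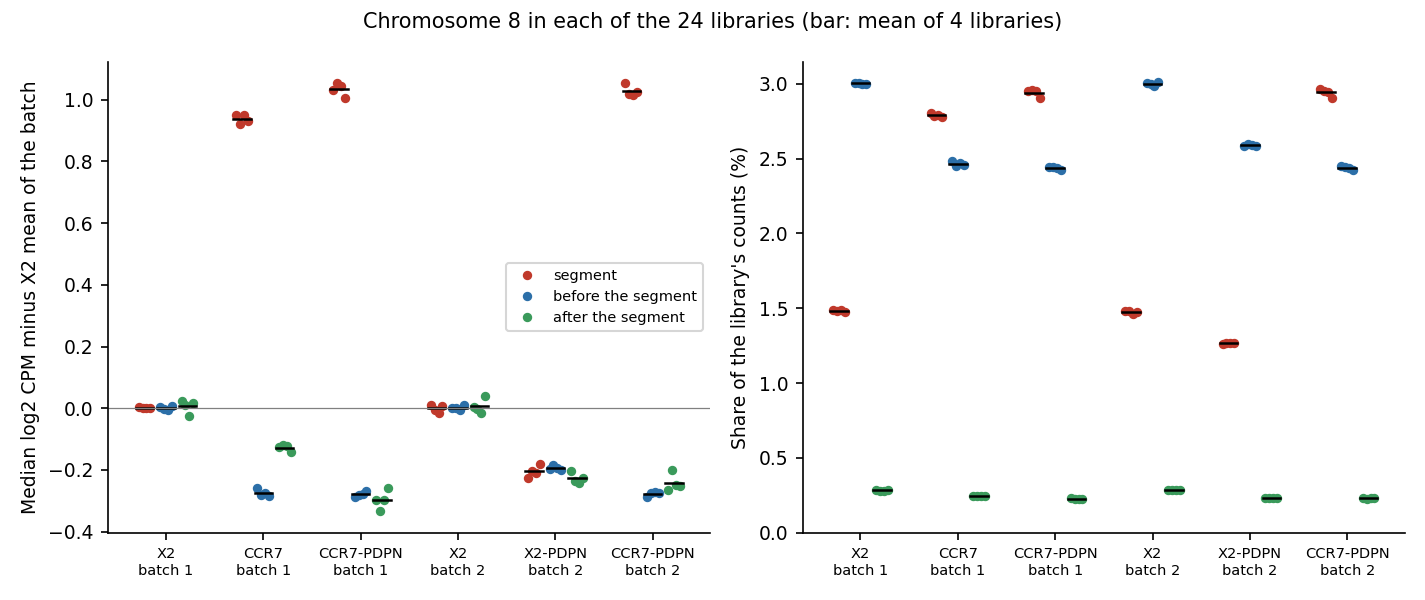
Left, median log2 CPM of the tested genes of each part of chromosome 8, minus the X2 mean of the same batch, for each of the 24 libraries (points) with the mean of 4 libraries (bars). Right, the share of the library's counts in percent. The segment lies at 0.92 to 1.05 in the 12 libraries with Ccr7 and at -0.22 to -0.18 in X2-PDPN, while the parts before and after it lie below 0 in both.

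Cells with Ccr7 against cells without gave the 4 comparisons that were counted as used to choose the members. The values at the borders are given for CCR7 against X2. The first tested members, Cdh5 (vascular endothelial cadherin), Tk2 (mitochondrial thymidine kinase), Cklf, Cmtm3 and Cmtm4, had log2 fold changes of 0.44, 0.88, 0.67, 0.75 and 0.93 between CCR7 and X2. Just outside, across a gap of 1236 kb without a tested gene, the pseudogene Gm8730 was at -0.41 and Cdh11, another cadherin, at -0.64. Farther out, Impdh2-ps was at 0.64, Gm5913 at 0.01 and Gm45760 at 0.06. At the far end Nup133, a nuclear pore protein, the antisense gene Gm45890, Abcb10, Taf5l and Urb2 were at 1.11, 1.41, 0.86, 0.96 and 1.22. The next tested gene, Galnt2, a glycosyltransferase 183 kb on, was at -0.39, and Pgbd5, Cog2, Agt and Capn9 after it were at -0.19, -0.30, -0.40 and -0.50.

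Between these borders the shift was present in most windows. In windows of 2 Mb the median log2 fold change between CCR7 and X2 was 0.89 in the first and 0.83 in the last window and between 0.97 and 1.14 in the other windows with more than 2 tested genes. The window with 2 tested genes, at -3.18, holds Nudt7. Over all 228 tested members the median was 0.95 between CCR7 and X2 (a 1.93-fold difference, interquartile range 0.72 to 1.11). It was 1.03 between CCR7-PDPN and X2 in batch 1, 1.02 in batch 2, and 1.28 between CCR7-PDPN and X2-PDPN (2.43-fold). In the same order, the medians of genes before the segment were -0.27, -0.29, -0.27 and -0.05, and those of the 32 tested genes after it were -0.15, -0.34, -0.23 and 0.01. The part before the segment was not uniform. Its first 2 windows of 2 Mb, with 15 and 13 tested genes, had medians of 0.34 and 0.37 between CCR7 and X2. Between CCR7-PDPN and X2 of batch 1 they were at -0.26 and -0.15. Another stretch, from -96 to -82 Mb relative to the first base of the segment, was lower. Its windows with more than 2 tested genes had medians of -0.58 to -0.43 between CCR7 and X2. Between CCR7-PDPN and X2-PDPN these were -0.54 to -0.37. The median of all other chromosomes lay between -0.0031 and 0.0059. The higher value against X2-PDPN goes with the lower level of the segment in X2-PDPN, given above.

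**Figure D2:**
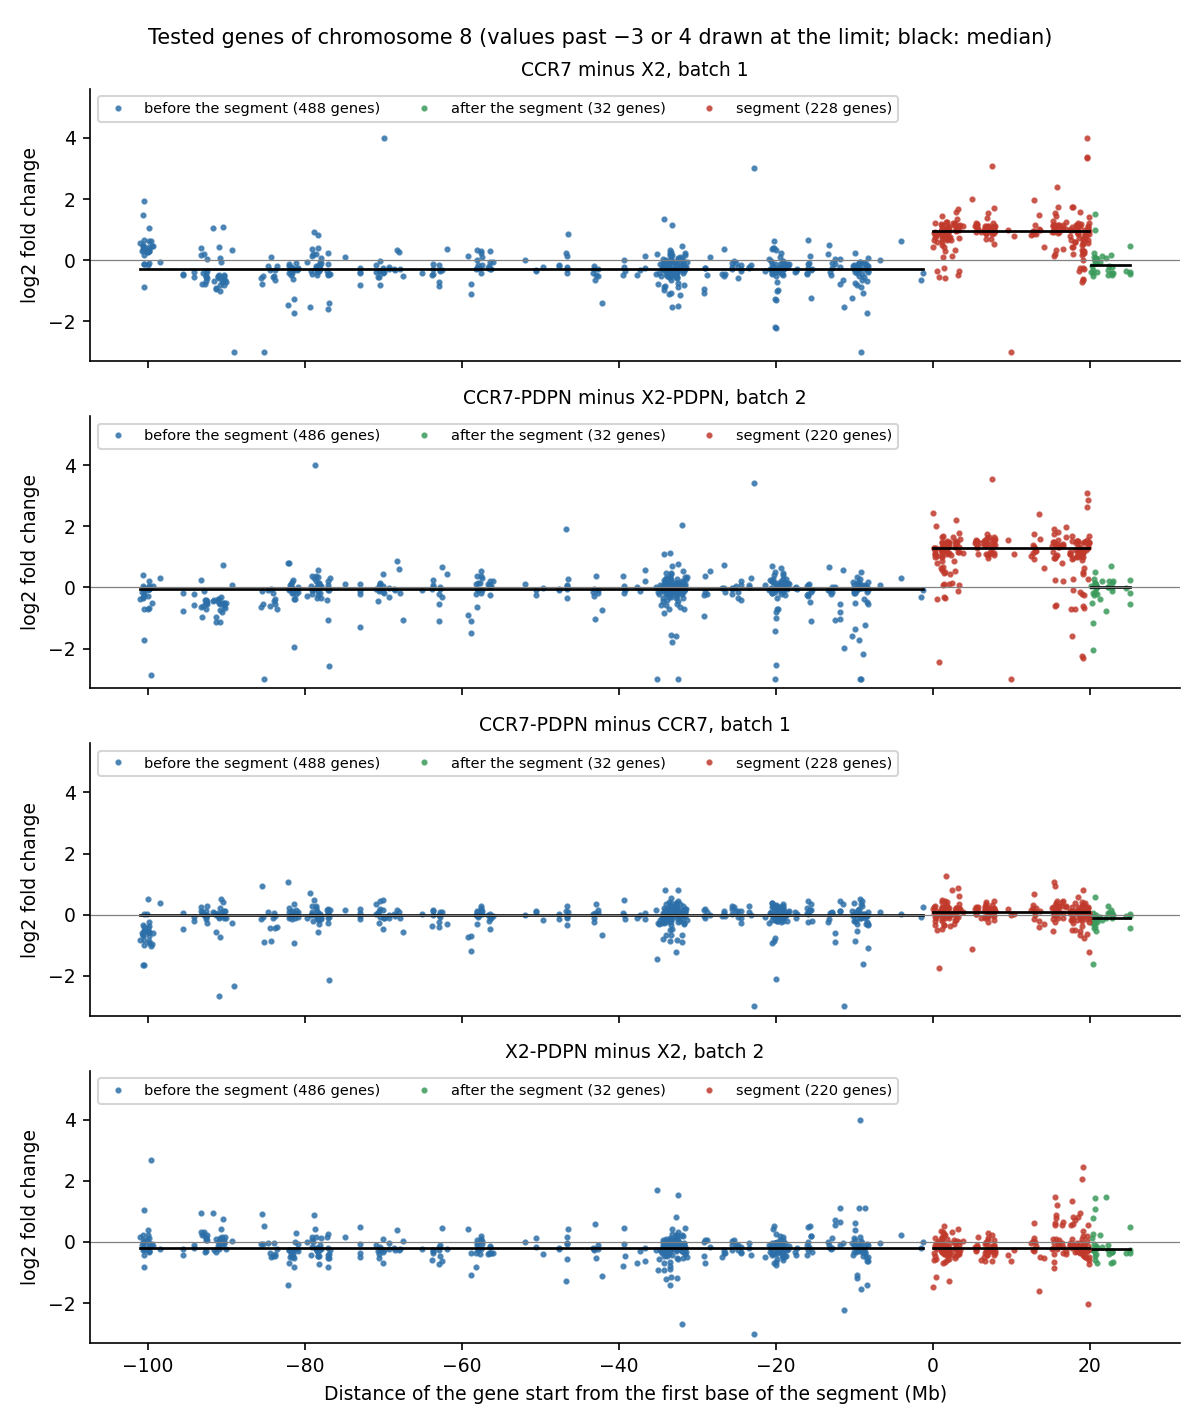
Log2 fold change of each tested gene of chromosome 8 (y axis) against the distance of its start from the first base of the segment in Mb (x axis), in 4 comparisons. Points are genes, black lines the medians of each part; values past -3 or 4 are drawn at the limit. The segment median is 0.95 and 1.28 in the upper 2 panels, above the parts on either side, and 0.10 and -0.19 in the lower 2, where the part before it is at 0.0014 and -0.20.

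The scatter around the median was wider at low level. The 176 members whose mean log2 CPM was 1 or more in both batches had a median of 0.95 between CCR7 and X2 with an SD of 0.32, and for the 52 other tested members the median was 0.92 and the SD 1.55. Between CCR7-PDPN and X2 of batch 1 the medians of these sets were 1.06 and 0.84. Counts in the second set are low and their fold changes uncertain. For CCR7-PDPN against X2, the fold changes of the 219 members tested in both batches correlated between the batches at Pearson's r = 0.97 and Spearman's rho = 0.95, a description across genes, which are not independent, of libraries that were themselves related across batches. The median distance between the 2 values of a gene was 0.035, and 200 of 219 genes lay within 0.3.

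**Figure D3:**
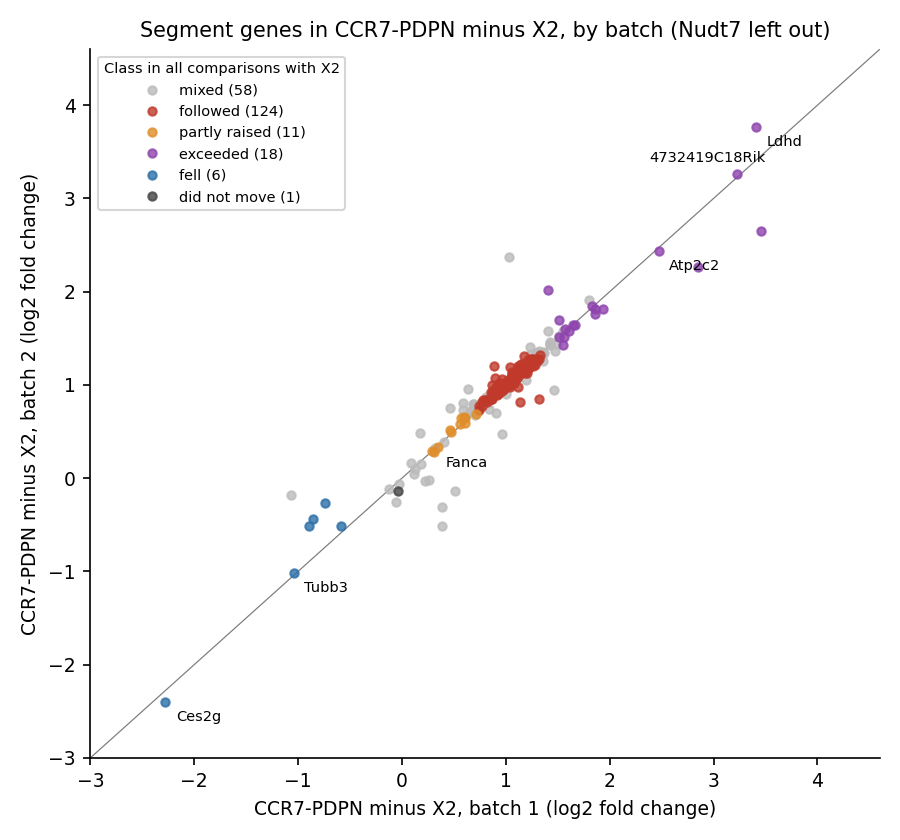
Log2 fold change of CCR7-PDPN minus X2 in batch 1 (x axis) and batch 2 (y axis) for 218 of the 219 segment genes tested in both; Nudt7, with no read in CCR7-PDPN, is left out. Colours give the class that a gene had in all 3 comparisons with X2, and grey marks genes whose class differed between them. Most genes sit in a dense cloud near 1 on both axes.

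Members were placed in 5 classes by their log2 fold change in each comparison: followed (within 0.3 of the segment median), exceeded (more than 0.3 above it), partly raised (above 0.2 but more than 0.3 under the median), did not move (between -0.2 and 0.2) and lower (under -0.2). The same limits applied to all tested genes gave the background. The classes describe the contrasts counted as used to choose the members and carry no test. Between CCR7 and X2, 157 of 228 members followed (5.51% of all tested genes met the same limits), 26 exceeded (1.82%), 26 were partly raised (15.4%), 5 did not move (54.6%) and 14 were lower (22.6%). Between CCR7-PDPN and X2 in batch 1, 145 followed (4.89% of all tested genes), 35 exceeded (2.05%), 28 were partly raised (19.9%), 12 did not move (45.2%) and 8 were lower (27.9%). In batch 2, of 220 tested members 141 followed (4.93%), 38 exceeded (2.04%), 19 were partly raised (19.4%), 11 did not move (45.8%) and 11 were lower (27.8%). Between CCR7-PDPN and X2-PDPN, 144 followed (2.11%), 26 exceeded (0.759%), 26 were partly raised (20.4%), 8 did not move (48.9%) and 16 were lower (27.8%). Among the 488 tested genes before the segment, 9 met the limits for followed and 306 those for lower between CCR7 and X2, and among the 32 after it the counts were 1 and 14.

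Over the 3 comparisons with X2, which share their X2 libraries within a batch, 124 of 219 members followed each time, 18 exceeded each time, 11 were partly raised each time, 1 did not move and 7 were lower each time. The other 58 changed class. The classes differed in level. Per length, the followers had a median TPM (reads per kilobase of gene, scaled to the same total in each library) of 44.7 in X2, those partly raised 37.8, those that exceeded 2.91 and those that were lower 2.86. Of the 124 followers 117 were protein-coding, and of the 18 that exceeded 14 were.

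The 8 members with the highest TPM were mostly followers. By TPM in X2 of batch 1 the first 8 members were Rpl13 (ribosomal protein L13, 2052 TPM), Cox4i1 (a subunit of cytochrome c oxidase, 627 TPM), Cfdp1 (a chromatin protein, 542 TPM), Aprt (adenine phosphoribosyltransferase, 374 TPM), Kars (lysyl-tRNA synthetase, 356 TPM), Psmd7 (a lid subunit of the proteasome, 334 TPM), Cyb5b (cytochrome b5 of the outer mitochondrial membrane, 305 TPM) and Aars (tied with the V-ATPase subunit gene Atp6v0d1 at 234 TPM to 3 digits). Of these 8, 6 followed in all 3 comparisons. The exceptions were Rpl13, which was partly raised, and Cyb5b, which exceeded.

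Aars (ENSMUSG00000031960, chr8:111033144-111057664) shows the shift in single libraries. It stood at 578, 576, 576 and 595 CPM in X2 of batch 1 and at 1166, 1228, 1289 and 1265 CPM in CCR7. CCR7-PDPN gave 1175, 1150, 1170 and 1168 CPM. In batch 2 X2 gave 576, 582, 574 and 583 CPM, X2-PDPN 434, 423, 420 and 440 CPM, and CCR7-PDPN 1173, 1135, 1159 and 1135 CPM. Every library with Ccr7 lay far above the X2 libraries, and the 4 X2-PDPN libraries lay below all X2 libraries. The log2 fold change was 1.09 (SE 0.03) for CCR7 and 1.00 (SE 0.03) for CCR7-PDPN against X2 in batch 1.

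Psmd7 (chr8:107580381-107588464) gave the same picture at 203, 203, 203 and 199 CPM in X2 and 484, 451, 424 and 436 CPM in CCR7 of batch 1, with 515, 512, 482 and 516 CPM in CCR7-PDPN. X2-PDPN libraries were at 171, 172, 162 and 170 CPM. Cox4i1 (chr8:120668222-120674207) had a mean of 259 ± 4.84 CPM in X2 and 529 ± 9.91 CPM in CCR7 of batch 1 (SD, n = 4), with 572, 541, 548 and 524 CPM in CCR7-PDPN, and of 201 ± 4.83 CPM in X2-PDPN of batch 2. For both genes the groups with Ccr7 lay above X2 and X2-PDPN below it, with no overlap.

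Of the 18 genes that exceeded the shift in all 3 comparisons, 12 had a mean log2 CPM of at least 1 in batch 1, among them Pskh1, a protein kinase, and Ddx19a, an RNA helicase of mRNA export. The highest was Cyb5b (chr8:107150640-107187471), with 361, 356, 354 and 354 CPM in X2, 926, 902, 882 and 880 CPM in CCR7 and 1024, 1031, 992 and 1026 CPM in CCR7-PDPN of batch 1. In X2-PDPN it was at 371, 368, 360 and 378 CPM beside 356, 350, 376 and 360 CPM in X2 of batch 2, which overlap. Its log2 fold changes against X2 were 1.33, 1.52 and 1.52 (each SE 0.03), above the segment medians of 0.95, 1.03 and 1.02.

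Its near neighbour Nfat5 (chr8:107293470-107379517), the transcription factor of the osmotic stress response, stood at 199, 210, 190 and 171 CPM in X2 and at 478, 796, 550 and 646 CPM in CCR7 of batch 1, where the 4 libraries were spread widely. CCR7-PDPN was narrower at 593, 572, 633 and 549 CPM. X2-PDPN, at 268, 235, 281 and 264 CPM, lay above X2 of batch 2 at 205, 208, 204 and 173 CPM. The log2 fold changes were 1.68 (SE 0.15), 1.61 (SE 0.15) and 1.58 (SE 0.08).

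By the naming rule the 8 highest members at a mean log2 CPM of at least 1 were Atp2c2 (a secretory pathway calcium pump), Car5a (a mitochondrial carbonic anhydrase), Klhl36, A130014A01Rik, Chst5 (a sulphotransferase), BC048644, Nfat5 and Foxl1 (a forkhead factor). Between CCR7 and X2 they had log2 fold changes of 1.25 to 1.75, Foxl1 and BC048644 with A130014A01Rik at the ends. Chst5 averaged 14.5 CPM in X2 and 47.3 CPM in CCR7. Car5a and Klhl36 were also above X2 in X2-PDPN, by 0.80 (SE 0.17) and 0.79 (SE 0.13). A130014A01Rik, BC048644 and Chst5 were at -0.18, -0.09 and 0.07 and did not pass the test there.

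The largest differences sat at low counts. Ldhd (chr8:111623785-111630374) had 1 or 2 counts in each X2 library of batch 1, 13 to 19 in the CCR7 libraries and 17 to 29 in those of CCR7-PDPN. In batch 2 it had 0 to 5 counts in X2, 1 to 5 in X2-PDPN and 24 to 31 in CCR7-PDPN. The ranges with and without Ccr7 did not overlap, and the fitted log2 fold changes were 3.08 (SE 0.44), 3.41 (SE 0.41) and 3.76 (SE 0.42). At 7 counts in the 4 X2 libraries of batch 1 together, the size of the fold is poorly fixed.

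Close to the far border, the lincRNA 4732419C18Rik (chr8:123744631-123754726) had 0.245, 0.247, 0.127 and 0.170 CPM in X2 of batch 1, 1.98, 1.67, 2.19 and 2.34 in CCR7 and 1.58, 1.76, 2.32 and 1.76 in CCR7-PDPN. X2-PDPN was at 0.148 to 0.306 CPM, within the range of X2. Gm45865 and Gm45866, on the other strand nearby, had log2 fold changes of 4.10 (SE 0.41) and 3.34 (SE 0.61) between CCR7 and X2. Whether the counting used the strand of the reads is not stated, so these 3 may not be separate signals. They were named after their values were seen.

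**Figure D4:**
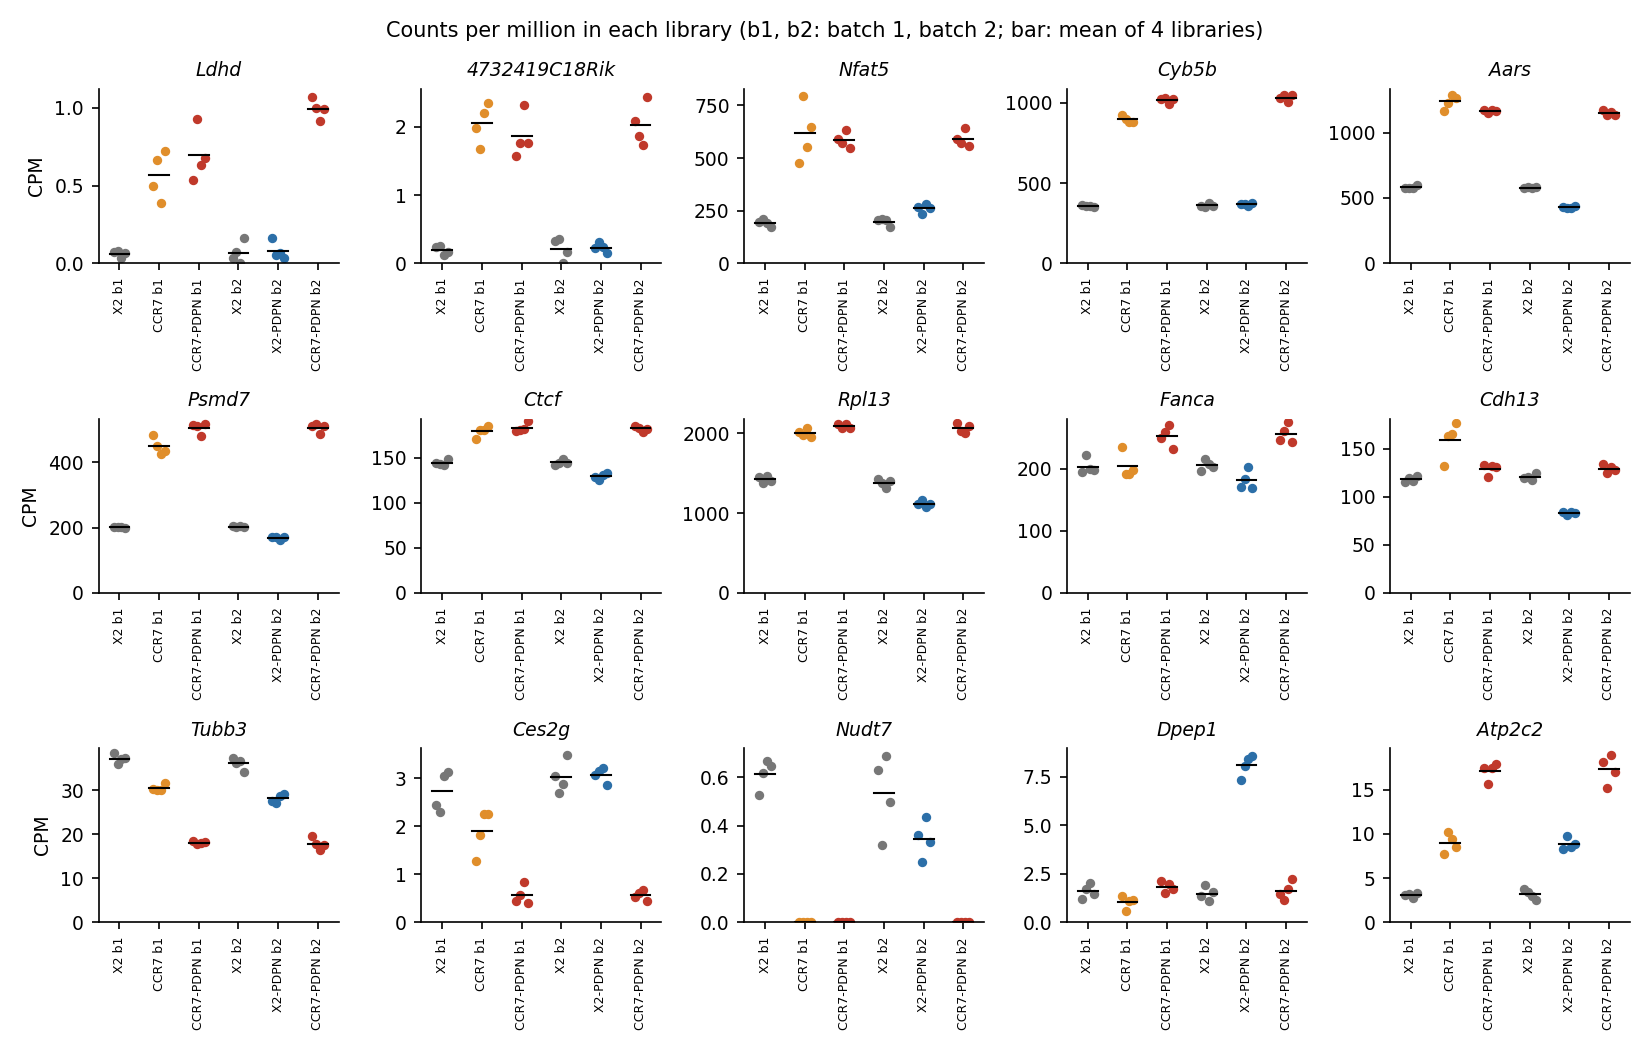
CPM (y axis, from 0) of 15 segment genes in each of the 24 libraries (points) with the mean of each group of 4 (bars). Cyb5b, Aars and Psmd7 follow or exceed the shift, Ctcf, Rpl13, Fanca and Cdh13 stay under it, Tubb3 and Ces2g are lower with Ccr7, and Nudt7 has no read there. Dpep1 is high only in X2-PDPN among the 6 groups, and Atp2c2 is higher in CCR7-PDPN than in CCR7 and in X2-PDPN than in X2.

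Members that lagged behind were fewer. Ctcf (chr8:105636568-105682922) stood at 144, 144, 142 and 148 CPM in X2 and 171, 181, 181 and 185 CPM in CCR7 of batch 1, with 180, 181, 183 and 191 CPM in CCR7-PDPN. Its log2 fold changes against X2 were 0.31, 0.34 and 0.33 (each SE 0.03) and lay under the limit for genes that followed. Rpl13 (chr8:123102350-123105244) averaged 1422 ± 39.6 CPM in X2, 2002 ± 51.6 CPM in CCR7 and 2091 ± 29.5 CPM in CCR7-PDPN of batch 1, which gave log2 fold changes of 0.49, 0.56 and, in batch 2, 0.58 (each SE 0.03). Ribosomal protein genes have many processed copies that can take or give reads, so its value is uncertain. The same holds for the pseudogene Rps26-ps1, named by the rule among the lowest, at -0.36, 0.26 and -0.02.

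The 8 lowest members at that level were Tubb3, Rps26-ps1, Cpne7, Wfdc1, Tppp3, Banp, Fanca and Cdh13. Cpne7, a copine, was the 1 gene that did not move in any of the 3 comparisons with X2 (0.17, -0.03 and -0.13, SE 0.11 to 0.14). Fanca (chr8:123268300-123318576), of the Fanconi anaemia DNA repair complex, had 194, 223, 199 and 198 CPM in X2 and 235, 191, 191 and 197 CPM in CCR7, which overlap, and 250, 259, 271 and 232 CPM in CCR7-PDPN, all above X2. Cdh13 (chr8:118283733-119324921), a cadherin without a transmembrane part, stood at 115 to 121 CPM in X2 of batch 1, at 132 to 176 CPM in the CCR7 libraries and at 120 to 132 CPM in those of CCR7-PDPN. Wfdc1 (0.21, -0.03 and -0.06), Tppp3 (0.09, 0.23 and -0.03) and Banp, a nuclear matrix protein (0.20, 0.08 and 0.17), completed the set.

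Of the 7 members lower each time, Tubb3 (chr8:123411424-123422015), neuronal beta-tubulin, was the best measured. It had 38.5, 36.0, 37.0 and 37.3 CPM in X2, 30.2, 30.2, 30.1 and 31.6 CPM in CCR7 and 17.8 to 18.4 CPM in CCR7-PDPN of batch 1. In batch 2 its mean was 36.1 ± 1.29 CPM in X2, 28.2 ± 0.942 CPM in X2-PDPN and 17.9 ± 1.35 CPM in CCR7-PDPN, and none of the groups of a batch overlapped. Ces2g (chr8:104961718-104969537), the only tested carboxylesterase of 11 members of that list, had 2.45, 2.31, 3.04 and 3.13 CPM in X2, 1.27, 1.81, 2.25 and 2.25 in CCR7, and 0.442, 0.577, 0.845 and 0.406 in CCR7-PDPN. In X2-PDPN it stayed at 2.86 to 3.21 CPM, inside the range of X2 in batch 2. The other members were Rrad, Spata33, Gm45855, Gm16378 and Nudt7.

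Nudt7 (chr8:114133557-114154739) was at 0 in all 12 libraries with Ccr7. X2 had 15 to 21 counts in batch 1 (0.524, 0.618, 0.665 and 0.647 CPM) and 9 to 21 in batch 2 (0.630, 0.318, 0.686 and 0.497 CPM), and X2-PDPN had 9 to 13 (0.362, 0.251, 0.435 and 0.334 CPM). With a floor of 3 counts for the 4 libraries of a group, it was at least 24.2-fold lower in CCR7 than in X2, at least 25.3-fold lower in CCR7-PDPN than in X2 of batch 1, at least 20.4-fold in batch 2, and at least 12.9-fold lower in CCR7-PDPN than in X2-PDPN. The floor covers counting error only. The other tested gene of its 2 Mb window, the oxidoreductase gene Wwox, was at 0.81 between CCR7 and X2.

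Lagging members were frequent in one stretch near the far end, from Spg7 to Def8, which was picked out after the values were seen. Between CCR7 and X2 the median of the 18 tested genes of this stretch was 0.28, against 0.97 for the 210 other members, and 0.51 against 1.06 between CCR7-PDPN and X2 in batch 1. Its 16 protein-coding genes alone had medians of 0.31 and 0.56. The stretch is not uniform. Tcf25, with 0.98, 1.14 and 1.14, was at the segment median, Spire2, Zfp276 and Chmp1a (a subunit of the ESCRT-III complex) were at 0.60 to 0.79 in CCR7, Spg7, Cdk10, Spata2l and Def8 were at 0.25 to 0.34, and Tubb3, Spata33, Dpep1, Gm4316 and the pseudogene Rps12-ps9 were under 0 in CCR7. In X2-PDPN its median was -0.25, beside -0.18 for the other members.

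**Figure D5:**
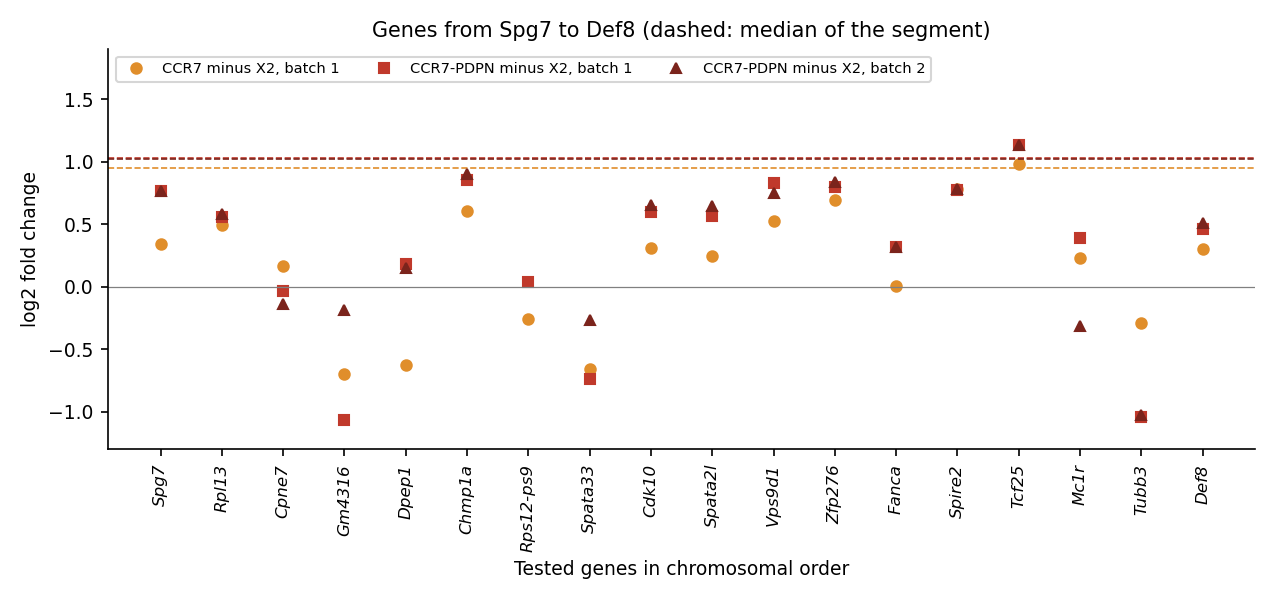
Log2 fold change (y axis) of the 18 tested genes from Spg7 to Def8 in chromosomal order (x axis) in the 3 comparisons with X2, with the segment median of each comparison as a dashed line. All but Tcf25 lie under the dashed line of each comparison.

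The remaining comparisons were not counted as used by the selection, by the limit of 0.2 chosen here. Which comparison set the borders is not stated. In X2-PDPN against X2 the segment median of -0.19 lay just inside that limit, and that of the 176 members of higher level, -0.23, lay past it. Both comparisons were tested with edgeR over all genes, though each shares a group of libraries with those counted as used. In CCR7-PDPN against CCR7, 92 of 228 tested members were higher at an adjusted p under 0.05 (40.4%, against 20.9% of all tested genes) and 20 were lower (8.77%, against 20.7%). The median log2 fold change was 0.10, while it was 0.0014 before the segment, where 93 of 488 genes were higher and 107 lower, and -0.12 after it, where 2 of 32 were higher and 13 lower. Within the part before the segment, the first 2 windows of 2 Mb had medians of -0.58 and -0.57. The changes of the segment members were small. Past a log2 fold change of 1 in either direction there were 4 members, of which 1 was higher and 3 were lower, against 3.27% of all tested genes. They were Rps13-ps4 at 1.05 (SE 0.33, adjusted p = 0.014), Ces2g at -1.73 (SE 0.24, adjusted p = 7.61e-06), D030068K23Rik at -1.11 (SE 0.32, adjusted p = 0.00763) and Gm45890 at -1.22 (SE 0.38, adjusted p = 0.0127). Apart from Ces2g these had under 1 CPM in all groups, and leaving out 1 library ended the call of Rps13-ps4 (0.77 without CCR7-PDPN replicate 2) and of Gm45890 (-1.07 without CCR7 replicate 3).

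In X2-PDPN against X2, 128 of 220 tested members were lower (58.2%, against 28.5% of all tested genes) and 23 were higher (10.5%, against 28.2%). The rest of chromosome 8 did likewise: 272 of 486 genes before the segment and 23 of 32 after it were lower, and the medians were -0.19 in the segment, -0.20 before it and -0.24 after it. The genes nearest the borders are given on both sides. At the start the 5 inside lay between -1.48 (Cdh5) and -0.09 (Cmtm3) and the 4 tested outside between -0.21 (Cdh11) and 0.22 (Impdh2-ps), which overlap. At the end the 4 tested inside lay between -0.73 (Abcb10) and -0.26 (Nup133, SE 0.03). The 5 outside lay between -0.25 (Cog2, SE 0.04) and 0.79 (Agt, SE 0.24). These ranges do not overlap, but Nup133 and Cog2 lie apart by less than the SE of either. These few genes were not tested against each other. Past a log2 fold change of 1 there were 10 members, 5 in each direction, against 5.05% of all tested genes.

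Dpep1, a membrane dipeptidase, changed most. It had 1.33, 1.91, 1.08 and 1.56 CPM in X2 and 7.31, 8.05, 8.39 and 8.57 in X2-PDPN, with no overlap (log2 fold change 2.46, SE 0.13, adjusted p = 8.05e-19). CCR7-PDPN of the same batch was at 1.47, 1.13, 1.71 and 2.25 CPM, which overlaps X2. Its neighbour Gm4316, a lincRNA, rose by 2.06 (SE 0.13). Atp2c2 (chr8:119700009-119757717) rose from 3.82, 3.46, 2.97 and 2.55 CPM to 8.29, 9.77, 8.56 and 8.83 (1.48, SE 0.10) and also rose between CCR7 and CCR7-PDPN, from 7.68, 10.2, 9.41 and 8.56 to 17.5, 15.6, 17.4 and 17.9 CPM (0.93, SE 0.08). Both changes had the same direction. Gm42047 (1.33, SE 0.23) and Crispld2 (1.21, SE 0.36) were the other 2 higher. The 5 lower were Gm29773 (-2.03, SE 0.50), Sdr42e1 (-1.60, SE 0.20), Cdh5 (-1.48, SE 0.53), Esrp2, an epithelial splicing regulator (-1.28, SE 0.40), and Car7 (-1.16, SE 0.29), of which Sdr42e1 alone reached 1 CPM in X2. Gm29773, like Gm45890, is annotated as antisense, and its reads may not be separate from those of the gene it overlaps. The call of Cdh5 was lost when X2 replicate 4, X2-PDPN replicate 1 or X2-PDPN replicate 2 was left out.

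Members were also grouped by function, and no list was tested against another. The lists are loose, and not every member fits the heading of its list. Beside the 124 of 219 members that followed in all, each list is given by its counts. Of the list of translation, tRNA and RNA processing genes 20 members were tested in batch 1, 16 followed in each comparison with X2, 1 exceeded, 1 was partly raised and 2 changed class. Kars (0.95, 1.06 and 1.03) and Aars followed, while the splicing factor Sf3b3 (1.07 in CCR7 and 1.34 in CCR7-PDPN of batch 2) changed class. The list also holds Ist1, Tango6, Gfod2 and Ranbp10, which are not translation genes and followed. In the tested comparisons 10 rose and 4 fell in CCR7-PDPN against CCR7, and 17 fell and 0 rose in X2-PDPN against X2. Of 12 proteasome and ubiquitin genes, 8 followed, among them the deubiquitinase Usp10 (1.04, 1.17 and 1.17), 1 exceeded and 3 changed class, among them the ubiquitin ligase Wwp2 (1.12, 1.49 and 1.44). Here 9 rose and 0 fell in CCR7-PDPN against CCR7, and 1 rose and 10 fell in X2-PDPN against X2.

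Of 16 tested genes for autophagy, vesicles and the V-ATPase 12 followed and 4 changed class. The Golgi glycoprotein Glg1 (1.07, 1.17 and 1.19) and Atp6v0d1 (0.91, 0.86 and 0.87) followed, and the AP-1 adaptor subunit Ap1g1 (1.36 and 1.35 in CCR7-PDPN) changed class. Of these 16, 13 rose and 1 fell in CCR7-PDPN against CCR7, and 1 rose and 14 fell in X2-PDPN against X2. Of 13 tested genes listed as mitochondrial 8 followed, 2 exceeded and 3 changed class. Emc8, counted among these followers, is not a mitochondrial gene. Spg7, a mitochondrial protease, was at 0.34, 0.77 and 0.77 and changed class, and it rose by 0.43 (SE 0.03, adjusted p = 4.26e-09) between CCR7 and CCR7-PDPN. In the first tested comparison 5 of the 13 rose and 1 fell, and in the second 0 rose and 7 fell.

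Of 25 transcription and chromatin factors 16 followed, 2 exceeded, 1 was partly raised and 6 changed class. Nfatc3, a calcium-regulated factor, was at 1.14 in CCR7 and 1.17 in CCR7-PDPN of batch 2 and the chromatin regulator Ankrd11 at 1.11, 1.02 and 0.99, beside Nfat5 above and Ctcf under the shift. In CCR7-PDPN against CCR7 8 rose and 3 fell, and in X2-PDPN against X2 4 rose and 15 fell. Of 14 genes of DNA replication, repair and the centromere 8 followed, 1 was partly raised, 1 was lower and 4 changed class. The lower one is Nudt7, a peroxisomal hydrolase and not a replication gene. The list also holds Nup133, a nuclear pore protein gene that followed, and Ctcf, the partly raised one. Pard6a and Dync1li2, which changed class, are not replication or repair genes either. Cdt1, which licenses replication origins, was at 0.97, 1.01 and 1.01 and followed. Here 8 rose and 1 fell, and then 0 rose and 12 fell.

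The redox list had 8 tested members in batch 1 and 7 in batch 2, of which 5 followed, 1 was partly raised and 1 changed class. Nqo1, a quinone reductase, was at 0.98, 1.21 and 1.17, Osgin1 at 1.11, 0.96 and 0.96, Cyba, the p22 subunit of the NADPH oxidase, at 1.02, 0.86 and 0.85, and Gcsh, of the glycine cleavage system, at 0.93, 1.06 and 1.11. In the tested comparisons 2 rose and 1 fell, and 1 rose and 5 fell. Of 15 tested genes listed as enzymes and carriers of lipids, sugars and nucleotides 10 followed. Among them were Mbtps1, the protease that activates sterol-regulated factors, at 0.93, 0.92 and 0.92, and Slc7a6, an amino acid exchanger, at 0.95, 0.98 and 0.98. Acd, also counted among these followers, is not a metabolic enzyme or carrier. Of the others 1 exceeded, 1 was lower and 3 changed class. There 4 rose and 2 fell, and then 0 rose and 8 fell.

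For cytoskeleton and cell shape 15 listed genes were tested, and their median between CCR7 and X2 was 0.80. Of these 7 followed, 1 was partly raised, 1 did not move, 1 was lower and 5 changed class. The list also holds the copine Cpne7, which did not move, and the cadherin Cdh13, which changed class. Map1lc3b, counted among the followers, is in the autophagy list as well. Piezo1, a mechanosensitive channel (0.93, 0.99 and 0.98), followed. In the tested comparisons 6 rose and 3 fell, and 2 rose and 8 fell. Of 5 tested genes listed under cadherins and adhesion 1, the docking protein Bcar1 (0.86, 0.97 and 0.94), followed and 4 changed class. Their median was 0.44 between CCR7 and X2. Those that changed class include the dipeptidase Dpep1 and the formin Fhod1, which are not cadherins. Of the 5, 3 rose and 1 fell, and then 2 rose and 3 fell. Of the 3 tested CMTM family genes 2 followed, and Cklf changed class. Of the 3, 2 rose and 0 fell, and then 0 rose and 3 fell. The rise of Cklf was lost when CCR7 replicate 3 or 4 or CCR7-PDPN replicate 1 or 3 was left out. The fall of Cmtm3 was lost with upper-quartile factors and without X2 replicate 1, 2 or 4 or X2-PDPN replicate 1 or 2. Both calls are also counted in the immune list that follows. Of 10 immune signalling genes 6 followed and 4 changed class, among them Mlkl, the effector of necroptosis (1.11, 1.34 and 1.34). Of the 10, 5 rose and 1 fell, and then 1 rose and 9 fell. Ces2g, alone for the carboxylesterases, fell in the first of the tested comparisons and was at 0.02 in the second. The nearer base for these counts is the share over all tested members of the segment. It was 40.4% higher and 8.77% lower in the first comparison, and 10.5% higher and 58.2% lower in the second. Over all tested genes the shares were near 21% each way in the first and near 28% each way in the second. A list that leans the same way as the segment is not thereby set apart from it.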

How the data were processed

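Counts of 24 libraries in 2 tables were used. The authors sequenced stranded mRNA libraries from one end, aligned the reads to GRCm38 and deposited, for each Ensembl gene and library, the count of reads as it was, neither normalised nor pooled. Batch 1 was counted with featureCounts, per the file headers. The aligner, and the filter that left 13915 genes in the batch 2 table, are not given in the sources used here. Totals were 22275468 to 35721027 counts.

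Within each batch, edgeR 4.0.16 (R 4.3.3) was run on the deposited counts with filterByExpr, TMM factors and robust quasi-likelihood fits over the 3 groups, with Benjamini-Hochberg adjustment over all 13261 (batch 1) or 13314 (batch 2) tested genes. An adjusted p under 0.05 was a call. Each standard error was obtained by dividing the size of the log2 fold change by the root of its F statistic. CPM used TMM-scaled totals, TPM the gene lengths of the count table, and log2 CPM a prior count of 2. GENCODE M21 gave names and types, and 541 of the 550 members had the same position there. Tables and figures were made with Python 3.11.15, pandas 2.3.3 and matplotlib 3.10.9.

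A comparison counted as used by the selection where the segment median differed from that of all genes by over 0.2 (log2), which held for 4 of 6. Members, classes and gene lists were chosen with earlier results of these data known. Named genes were the 5 tested genes on each side of each border, the 8 highest and 8 lowest mean log2 fold changes against X2 at a mean log2 CPM of at least 1, the 8 highest TPM, up to 4 of the highest CPM of each of 13 lists, and members past a log2 fold change of 1 in a tested comparison. Other genes shown by library were added after their values were seen. On simulated counts of batch 1 (CCR7-PDPN against CCR7, 13188 genes), 94 of 100 genes changed by a log2 of 1 and 64 of 98 changed by 0.25 were called in the right direction, with 8 of 12990 unchanged genes called. For batch 2 (X2-PDPN against X2, 13201 genes) the counts were 95 of 100, 60 of 97 and 13 of 13004. The simulation gave every gene the same spread between libraries, which the data do not have. Its counts check the fit and are not rates for the data. No pair of replicates within a group agreed within sampling noise (chi-square per degree of freedom at least 1.99 over 36 pairs). The alternatives tried were TMM without chromosome 8, upper-quartile and RLE factors, DESeq2 1.42.0, no filter, at least 10 counts in every library, 2 groups only, a replicate block, each library left out, genes at a mean log2 CPM of at least 1, and a tolerance around the median of 0.2 or 0.5.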

Additional observations from a re-analysis of the deposited data

Results flagged for a closer look

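Dixon's ratio was computed in 106 groups of 4 libraries, and 7 held a library far from the other 3; chance gives about 1 in 20 groups. The share of counts taken by the segment was lowest in one CCR7-PDPN library of batch 1, at 2.90% beside a highest of 2.96%. Among single genes, the library that stood apart was at 172.7 CPM for Nfat5 in X2 of batch 2, 595.2 CPM for Aars and 199.2 CPM for Psmd7 in X2 of batch 1, 481.5 CPM for Psmd7 in CCR7-PDPN of batch 1, 235.1 CPM for Fanca in CCR7 and 31.62 CPM for Tubb3 in CCR7. The Psmd7 library of CCR7-PDPN lay just under the highest CCR7 library, at 483.5 CPM, while the other 3 lay above all CCR7 libraries.

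The median of the segment moved in opposite directions in the PDPN sorts. All 4 CCR7-PDPN libraries lay above all 4 CCR7 libraries of batch 1, and all 4 X2-PDPN libraries lay below all 4 X2 libraries of batch 2. In X2-PDPN against X2 the fall was not particular to the segment, with medians of -0.20 before it and -0.24 after it beside its -0.19. In CCR7-PDPN against CCR7 they were 0.0014 and -0.12 beside 0.10. The log2 changes of the segment differed by 0.29. This difference was not tested, it sets cells of one batch against cells of the other, and CCR7 is itself a PDPN-negative sort.

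The members under the count filter, which no comparison used, also had more reads with Ccr7. Summed over 322 such members, they took 9.81 CPM in CCR7 and 8.79 CPM in CCR7-PDPN of batch 1, against 6.05 CPM in X2. In batch 2, 8 such members took 2.70 CPM in CCR7-PDPN, 1.23 CPM in X2 and 1.32 CPM in X2-PDPN. A gene high with Ccr7 is less likely to fall under the filter.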

How the results depend on the processing

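The segment median kept its sign under every alternative run. Other than leaving out a library, 8 alternatives gave 0.92 to 0.95 for CCR7 against X2, 0.98 to 1.04 and 1.02 to 1.03 for CCR7-PDPN against X2 in batches 1 and 2, 1.26 to 1.29 for CCR7-PDPN against X2-PDPN, 0.070 to 0.11 for CCR7-PDPN against CCR7 and -0.20 to -0.17 for X2-PDPN against X2. The medians that moved by more than the spread of libraries were 0.92, 0.98 and 0.070 with no filter in the 3 comparisons of batch 1, and 1.26 and -0.17 with upper-quartile factors in CCR7-PDPN against X2-PDPN and X2-PDPN against X2. The 176 members whose mean log2 CPM was 1 or more in both batches had medians outside these ranges, at 1.06 for CCR7-PDPN against X2 in either batch, 1.33 for CCR7-PDPN against X2-PDPN and -0.23 for X2-PDPN against X2, and at 0.95 and 0.11 for CCR7 against X2 and CCR7-PDPN against CCR7, where they lay close to the value over all tested members. In the tested comparisons, 88 to 96 members were higher and 18 to 24 lower in CCR7-PDPN against CCR7, and 19 to 25 higher and 122 to 130 lower in X2-PDPN against X2. Leaving out 1 library gave 85 to 104 and 15 to 26, and 19 to 24 and 121 to 129.

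Class counts depended on which low genes were kept and on the limits. With no filter, CCR7 against X2 had 77 that exceeded, 35 that did not move and 48 lower, and CCR7-PDPN against X2 in batch 1 had 100, 32 and 43, with 45 partly raised. With at least 10 counts in every library, 12 exceeded and 9 were lower in CCR7 against X2, 5 and 6 were lower in CCR7-PDPN against X2 of batches 1 and 2, and 17 exceeded in CCR7-PDPN against X2-PDPN. Among members whose mean log2 CPM was 1 or more, those that exceeded numbered 11, 21, 18 and 13 in the 4 comparisons in the order of the report. In CCR7 against X2 3 then did not move and 2 were lower, in CCR7-PDPN against X2 of batch 1 these were 5 and 1, in batch 2 2 were lower, and in CCR7-PDPN against X2-PDPN 2 did not move and 8 were lower. A tolerance of 0.2 gave 46, 57 and 54 that exceeded in CCR7 against X2, CCR7-PDPN against X2 of batch 1 and CCR7-PDPN against X2-PDPN, and 42, 33 and 43 partly raised in CCR7 against X2, CCR7-PDPN against X2 of batch 2 and CCR7-PDPN against X2-PDPN. A tolerance of 0.5 gave 19, 20 and 11 that exceeded in the 3 comparisons of CCR7-PDPN and 15, 13, 9 and 15 partly raised in all 4. Leaving out 1 library moved the number that did not move in CCR7 against X2 to between 4 and 10. It was 8 without X2 replicate 1, 10 without CCR7 replicate 1 and 8 without CCR7 replicate 2, and 5 with all libraries.

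Within a batch, same-numbered libraries of different groups correlated at -0.12 to 0.11, and only 1 of 24 pairs was over 0.1, so the numbers were not taken as a pairing. With the replicate number as a block, 94 members were higher and 19 lower in CCR7-PDPN against CCR7, and 23 and 130 in X2-PDPN against X2. Low counts limit the folds of genes under 1 CPM, and 4 technical replicates limit what any p-value covers.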
